A study of Mus musculus with 6 samples.

Results

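Activator protein 1 (AP-1) is a pair of basic leucine zipper proteins, most often a Fos protein joined to a Jun protein, that binds DNA at the motif TGANTCA. Fos proteins cannot pair with themselves and need a Jun partner, while Jun proteins also pair with each other. Signals from the T cell receptor and CD28 raise AP-1 through MAP kinases, and AP-1 then acts with NFAT on cytokine genes. BATF and BATF3 are short family members that lack a transactivation domain. They pair with Jun proteins and bind together with IRF4 or IRF8. Described here are 9 AP-1 genes in stimulated CD4+ T cells: Fos, Fosb, Fosl1 and Fosl2, Jun, Junb and Jund, and Batf and Batf3. They were taken by gene name from the array annotation, which gave 8 of them a probe set with a single gene symbol, out of 22180 genes so named, and 9 probe sets in all, since Jund has more than 1. Fosl1 had no probe set of its own name alone and was not analysed here. The set was proposed with earlier results of this same comparison known, so the log2 fold changes of icilin against vehicle count among the values it was selected on. What follows is therefore a description: p-values say which genes met the study's limits and support nothing further.

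The cells were CD4+ T cells purified from spleens of wild-type female C57BL/6 mice about 8 weeks old. All of them received 10 µg/mL each of antibodies to CD3 and CD28 for 24 h, and then either 100 µM icilin or only the solvent DMSO (the vehicle) for a further 24 h. Icilin is a synthetic cooling agent known to open the ion channels TRPM8 and TRPA1. RNA was read on 6 Affymetrix Mouse Gene 2.0 ST arrays, 3 per group, and the same 3 mice supplied cells to both groups. There was no unstimulated group, so how far stimulation had raised each gene was not measured. Values are log2 levels from the robust multi-array average (RMA), in which 1 unit is a doubling. Levels of different probe sets cannot be set against each other as amounts of transcript, so each change is read within its own gene. Brightness percentiles and summed marker levels do mix probe sets and are only a rough guide. A gene counts as called when its limma adjusted p was under 0.1 and its change at least 1.5-fold, a log2 fold change of 0.58 in either direction. In such bulk samples fewer cells with a transcript and less of it per cell cannot be told apart.

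The arrays were those of T cells by their markers. All 9 measured CD4 T cell markers lay above percentile 92.1 of brightness among all genes, and Cd4 itself stood at 11.04 with vehicle and 11.06 with icilin. The log2 of the summed level of these 9 markers was 13.76 to 13.84 on the vehicle arrays and 13.75 to 13.80 on the icilin arrays. For 6 markers of CD8 T and natural killer cells it was 7.25 to 7.39 with vehicle and 7.34 to 7.64 with icilin, and for 13 myeloid and dendritic cell markers 7.35 to 7.40 and 7.27 to 7.37. For 8 B cell markers it was 7.52 to 7.60 and 7.61 to 7.65, and for 3 red cell and platelet markers 6.35 to 6.60 and 6.11 to 6.18, so that these last sums did not overlap between the groups. No marker of these lists was called apart from the B cell gene Ms4a1, which was higher with icilin (1.01 ± 0.10). Of the 8 B cell markers 4 lay above 0 and 4 below, the lowest being Ebf1 (-0.73 ± 0.20, limma adjusted p = 0.128). RMA values have no zero, so an absent transcript has a low value and not 0. The part of such cells in the results below was not tested, beyond the values given.

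The promoters of the genes that differed are shown first, with that of Jun for comparison, because AP-1 is known to act on some of its own genes. Each run is the 250 bases before the annotated start site, 5′ to 3′, from RefSeq on the build GRCm38.p6. Of the 9 genes, 8 were matched to a window. Capitals mark matches on either strand to TGANTCA (the AP-1 motif), TGACNTCA (the related motif that ATF and CREB proteins bind), TGACG (its start, which a TGACNTCA match can overlap), TTCNNNGAA (bound by STAT proteins) or the CArG box (bound by serum response factor).
Fosl2, chr5:32136222-32136471, plus strand: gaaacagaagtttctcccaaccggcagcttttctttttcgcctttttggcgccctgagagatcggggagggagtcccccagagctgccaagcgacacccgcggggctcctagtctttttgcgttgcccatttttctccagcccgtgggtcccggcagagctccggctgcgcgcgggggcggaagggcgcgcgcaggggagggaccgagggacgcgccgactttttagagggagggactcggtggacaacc
Junb, chr8:84978749-84978998, minus strand: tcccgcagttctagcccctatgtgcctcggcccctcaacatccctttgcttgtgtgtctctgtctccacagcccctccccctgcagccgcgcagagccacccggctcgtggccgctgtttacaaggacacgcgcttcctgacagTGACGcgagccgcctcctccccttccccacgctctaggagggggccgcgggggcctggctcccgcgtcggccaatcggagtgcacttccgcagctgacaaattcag
Batf, chr12:85686470-85686719, plus strand: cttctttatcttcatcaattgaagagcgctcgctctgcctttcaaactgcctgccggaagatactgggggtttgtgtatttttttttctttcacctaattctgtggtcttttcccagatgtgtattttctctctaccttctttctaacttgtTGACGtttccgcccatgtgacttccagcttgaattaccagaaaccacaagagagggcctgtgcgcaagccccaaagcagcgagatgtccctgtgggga
Batf3, chr1:191098164-191098413, plus strand: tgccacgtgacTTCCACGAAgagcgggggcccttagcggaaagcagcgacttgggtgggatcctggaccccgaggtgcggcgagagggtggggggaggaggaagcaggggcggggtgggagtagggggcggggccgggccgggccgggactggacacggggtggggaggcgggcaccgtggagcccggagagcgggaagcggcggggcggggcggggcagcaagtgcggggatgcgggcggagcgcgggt
Jun, chr4:95052223-95052472, minus strand: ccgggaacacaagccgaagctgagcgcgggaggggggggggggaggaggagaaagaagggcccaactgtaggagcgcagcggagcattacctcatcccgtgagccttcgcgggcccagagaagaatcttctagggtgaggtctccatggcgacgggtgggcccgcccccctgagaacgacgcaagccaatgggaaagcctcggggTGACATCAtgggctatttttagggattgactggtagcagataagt

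In these windows TGANTCA and the CArG box had 0 matches in all 8 genes, against 6.75% and 1.47% of all 32851 windows of that length in the table. TGACNTCA was found in 1 of the 8, in Jun, as TGACATCA starting 45 bases before the start site (7.49% of all windows). The shorter motif TGACG occurred once each in Junb (106 bases before the start), Batf (98) and Fosb (60) and at 2 places in Fos, and 17.8% of all windows held it. TTCNNNGAA was found in Batf3 as TTCCACGAA, 239 bases before the start (7.02% of all windows). The Fosl2 window held none of the 5 motifs. A match is a run of letters and was not shown to be a bound site, and binding was not measured here. Bases further upstream were not searched, so a motif absent from a window may still lie beyond it.

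Icilin-treated cells had lower Fosl2, Junb and Batf and higher Batf3 transcript levels than vehicle cells. Fosl2 stood at 0.495 and Junb at 0.647 of the vehicle level, both called. Batf stood at 0.713 and Batf3 at 1.38 of it, both under the adjusted p limit and short of 1.5-fold. For Fos, Fosb, Jun and Jund neither limit was met. Thus 2 of 8 members were called lower, where 1.03% of all 22180 genes were, and 0 of 8 were called higher, where 0.370% were. By the adjusted p alone, 3 members were lower (3.00% of all genes) and 1 higher (2.27%). The same 4 genes had groups that did not overlap, 3 lower (10.5% of all genes) and 1 higher (13.6%). The median log2 fold change of the 8 was -0.10, and that of all genes 0.01.

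**Figure D1:**
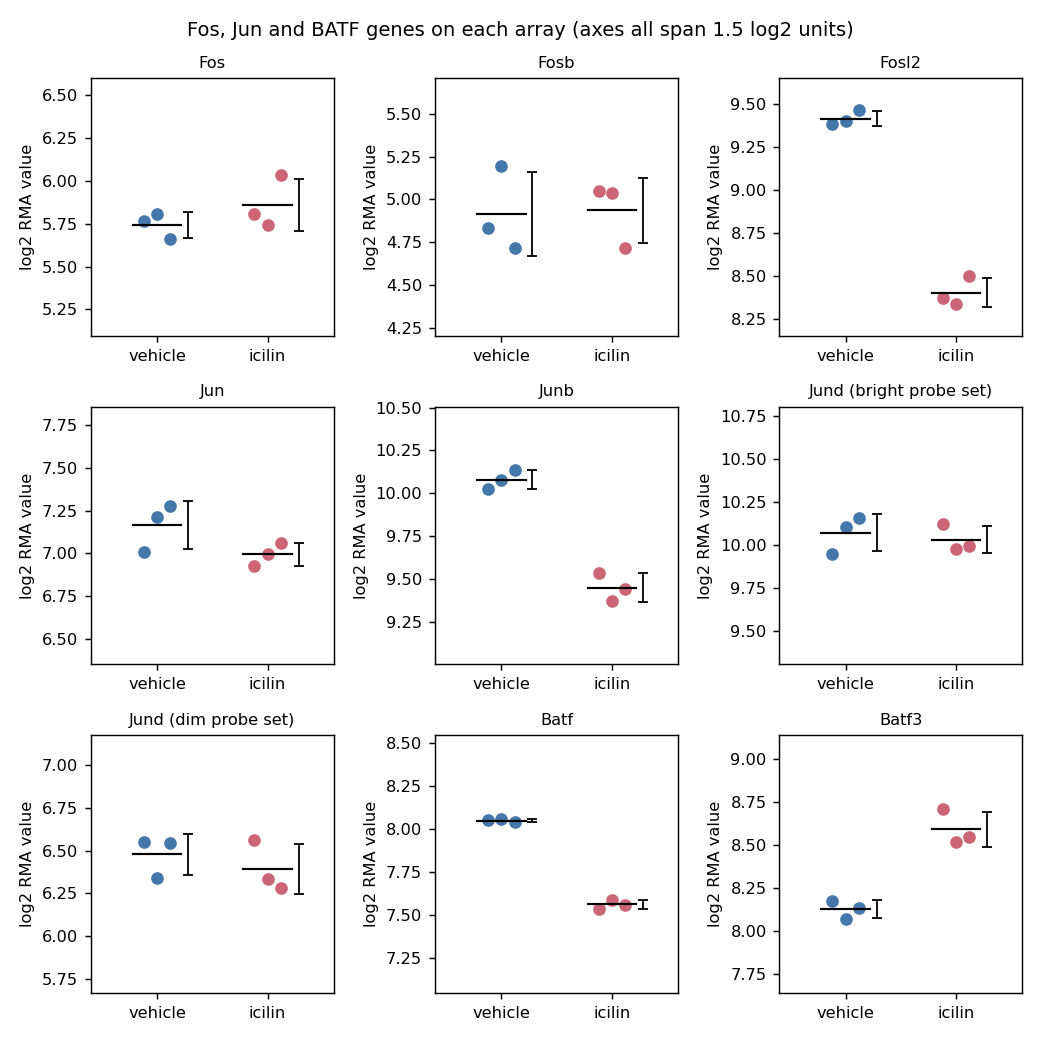
Log2 RMA value of each AP-1 probe set (y axis, every panel spanning the same range) on the 3 vehicle arrays (blue) and the 3 icilin arrays (red), with the group mean as a line and the SD (n = 3) as a bar to its right. Fosl2, Junb and Batf are lower and Batf3 is higher on all 3 icilin arrays, while the groups overlap for Fos, Fosb, Jun and both probe sets of Jund.

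Among Fos, Fosb and Fosl2, the change lay in Fosl2, while Fosl1 was not analysed. Fosl2 encodes FRA-2, a Fos protein without the strong transactivation domain of FOS itself. Its level was 9.38, 9.40 and 9.47 on vehicle arrays 1 to 3, and 8.37, 8.34 and 8.50 on icilin arrays 1 to 3. All 3 icilin arrays lay below all 3 vehicle arrays, and the nearest were 0.88 apart. The mean went from 9.42 ± 0.04 (SD, n = 3) to 8.40 ± 0.09. The log2 fold change was -1.01 ± 0.07 (SE; limma adjusted p = 0.00109; 95% interval -1.18 to -0.85), and on the linear scale Fosl2 fell by 50.5%. It was called under all 13 alternatives of processing, at -1.06 to -0.98.

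Fos is the founding gene of the family, an immediate early gene whose transcript appears within minutes of stimulation and is short-lived. It stood at 5.76, 5.80 and 5.66 on the vehicle arrays and at 5.81, 5.74 and 6.03 on the icilin arrays, so the groups overlapped. The difference of 0.12 ± 0.09 (limma adjusted p = 0.587) had a 95% interval of -0.10 to 0.34, which leaves out changes of 1.5-fold. Fosb, another immediate early gene, stood at 4.84, 5.19 and 4.72 with vehicle and 5.05, 5.04 and 4.72 with icilin. Its arrays scattered most of the members (SD 0.25 and 0.19), and its difference of 0.02 ± 0.15 (limma adjusted p = 0.960) had an interval of -0.33 to 0.37. The sign for Fosb turned with single arrays left out, from -0.08 without vehicle replicate 3 to 0.16 without vehicle replicate 2. Fos and Fosb lay at percentiles 62.9 and 54.8 of brightness among all genes.

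Of the Jun genes, Junb was called and Jun and Jund were not. JUNB pairs with FOS and BATF proteins and takes part in Th2 and Th17 differentiation. Its level was 10.02, 10.08 and 10.14 on the vehicle arrays and 9.54, 9.37 and 9.44 on the icilin arrays, with 0.49 between the nearest arrays of the groups. Junb fell from 10.08 ± 0.06 to 9.45 ± 0.08, a log2 fold change of -0.63 ± 0.07 (limma adjusted p = 0.00604; interval -0.80 to -0.46). On the linear scale it fell by 35.3%. It stayed past both limits under all 13 alternatives in the fit over genes (-0.67 to -0.59), with little room to the fold limit. In a fit over all 41345 probe sets, of which 0.866% were called, Fosl2 and Junb were called again (adjusted p = 0.00841 and 0.0305). There Fosl2 was called with each of the 6 arrays left out (adjusted p 0.0403 to 0.0662), and Junb was not called without any 1 of them (adjusted p 0.105 to 0.153). With the replicate number as a block, neither was called in that fit by limma (adjusted p = 0.120 for Fosl2 and 0.226 for Junb).

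Jun, the gene of c-JUN, the classical partner of FOS, stood at 7.01, 7.21 and 7.28 with vehicle and 6.93, 7.00 and 7.06 with icilin. Vehicle replicate 1 lay among the icilin arrays. The difference was -0.17 ± 0.09 (limma adjusted p = 0.393; interval -0.38 to 0.04), and -0.25 without vehicle replicate 1 (adjusted p = 0.195). Jund, whose protein restrains growth in several cell types, stood at 9.95, 10.10 and 10.16 with vehicle and 10.12, 9.98 and 9.99 with icilin on the brighter of its probe sets. That difference was -0.04 ± 0.08 (limma adjusted p = 0.855; interval -0.23 to 0.15), and its sign turned without vehicle replicate 3 (0.01). The dimmer probe set of Jund read 6.55, 6.34 and 6.54 against 6.56, 6.33 and 6.28, a difference of -0.09 ± 0.11 (limma adjusted p = 0.814 over all probe sets; interval -0.35 to 0.17). The groups overlapped on both Jund probe sets, and both intervals leave out a change of 1.5-fold.

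The BATF genes differed in opposite directions. BATF is required for Th17 and follicular helper T cells and supports effector T cells. It stood at 8.05, 8.05 and 8.04 on the vehicle arrays and 7.53, 7.59 and 7.56 on the icilin arrays, the tightest replicates of any member. Batf went from 8.05 ± 0.01 to 7.56 ± 0.03, a log2 fold change of -0.49 ± 0.06 (limma adjusted p = 0.00737; interval -0.63 to -0.35), and a linear change of -28.7%. In the fit over genes this change was below 1.5-fold under all 13 alternatives (-0.50 to -0.46), and the adjusted p was under 0.1 in all of them. Over all probe sets the limma adjusted p of Batf was 0.0370, and 0.136 to 0.176 with single arrays left out. The replicate block gave 0.247 there by limma.

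Batf3, known for its need in cross-presenting dendritic cells and for supporting memory and restraining regulatory T cell fate in T cells, stood at 8.17, 8.07 and 8.13 with vehicle and 8.71, 8.52 and 8.54 with icilin. Every icilin array lay above every vehicle array, by 0.35 at the nearest. The level went from 8.13 ± 0.05 to 8.59 ± 0.10, a log2 fold change of 0.47 ± 0.08 (limma adjusted p = 0.0240; interval 0.29 to 0.65), or 38.1% higher. In the fit over genes the change stayed below 1.5-fold under all 13 alternatives (0.41 to 0.50), with an adjusted p of at most 0.0994. Over all probe sets the limma adjusted p of Batf3 was 0.0859, and 0.203 to 0.274 with single arrays left out. The replicate block gave 0.270 there by limma, and SAM gave 0.188. Beside it, the dendritic cell markers picked from the 13 myeloid and dendritic ones were Xcr1 (-0.01), Itgax (0.06), Flt3 (-0.22) and Siglech (-0.16). They were not called and had brightness percentiles of 36.6, 40.9, 41.5 and 33.8. Of the 13, 7 lay below 0 and 6 above, the highest being Itgam (0.21 ± 0.06, limma adjusted p = 0.151). The part of such cells in the Batf3 level was not tested.

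**Figure D2:**
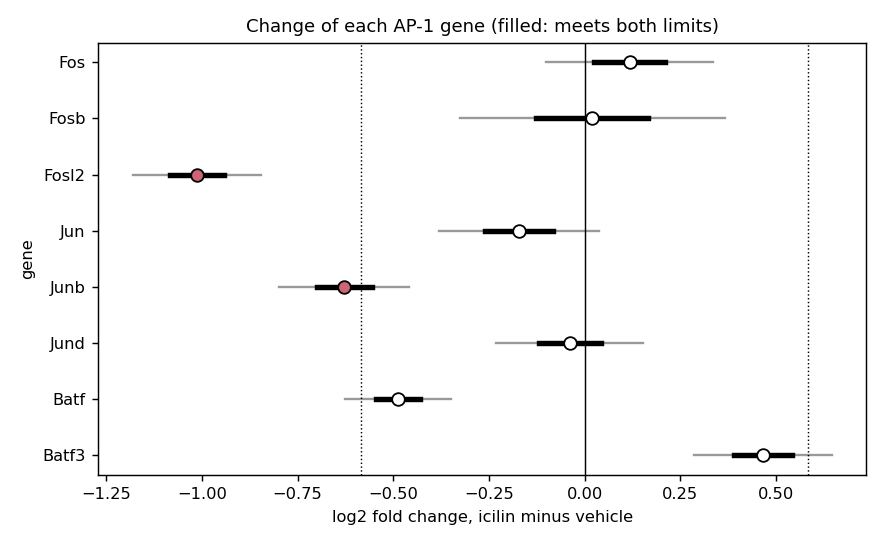
Log2 fold change, icilin minus vehicle (x axis), of the 8 AP-1 genes with its SE (thick line) and 95% interval (thin line), filled where a gene was called; dotted lines mark 1.5-fold. Fosl2 (-1.01) and Junb (-0.63) lie past the lower line, Batf (-0.49) and Batf3 (0.47) between it or the upper line and 0, and the intervals of Fos, Fosb, Jun and Jund include 0.

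Other basic leucine zipper genes that pair or compete with AP-1 proteins had no call. Of 14 measured (15 listed), limma called 0, beside 1.03% lower and 0.370% higher of all genes. SAM, the test the study used, also called 0. Before adjustment 5 had a limma p under 0.05, beside 3802 of all 22180 genes. By the adjusted p alone 2 were lower and 1 higher, beside 3.00% and 2.27% of all genes, and the median was 0.02. The member with the smallest p was Crem, whose products include the repressor ICER. It stood at 6.48, 6.43 and 6.48 with vehicle and 6.01, 5.93 and 5.99 with icilin (-0.49 ± 0.06, limma adjusted p = 0.00920), short of 1.5-fold. The other 2, picked once values were known, were Jdp2, a repressor that pairs with Jun proteins (0.40 ± 0.08, adjusted p = 0.0590 by limma), and the small Maf gene Maff (-0.35 ± 0.08, adjusted p = 0.0640 by limma). Batf2, the third BATF gene, had a difference of 0.07 ± 0.11. Partners that bind beside AP-1 on composite sites had 0 calls among 7 by limma and by SAM. Of these 7, 2 had a limma p under 0.05 before adjustment, beside the same 3802 of all genes. Irf4 had the lowest p of them. It encodes a partner of BATF and stood at 11.21, 11.27 and 11.32 with vehicle and 11.11, 11.09 and 11.08 with icilin. Its groups did not overlap, but the difference was small (-0.18 ± 0.06, limma adjusted p = 0.212). The NFAT genes of this list, named after their values were seen, differed by -0.03 (Nfatc1), -0.24 ± 0.09 (Nfatc2) and 0.11 ± 0.06 (Nfatc3). The limma adjusted p was 0.233 for Nfatc2 and 0.403 for Nfatc3.

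Of 17 measured genes of the pathways that raise AP-1 (21 listed), 1 was called lower and 0 higher, beside 1.03% and 0.370% of all genes. Malt1 encodes the protease and scaffold that links the T cell receptor to NF-κB and JNK. It stood at 11.10, 11.06 and 11.09 with vehicle and 10.14, 10.15 and 10.22 with icilin, a log2 fold change of -0.91 ± 0.06 (limma adjusted p = 0.000927). Its groups were 0.84 apart. By the adjusted p alone 4 genes of this list were lower and 0 higher, beside 3.00% and 2.27% of all genes. Besides Malt1 these were, picked once values were known, the MAP kinase kinase gene Map2k1 (-0.51), the upstream kinase gene Map3k1 (-0.41) and the ETS factor gene Elk3 (-0.48), with limma adjusted p of 0.0115, 0.0191 and 0.0133. The list median was 0.12, since 11 of the 17 lay above 0, beside 11749 of all 22180 genes. The groups did not overlap for 5 lower and 7 higher genes of this list, beside 10.5% and 13.6% of all genes. A limma p under 0.05 before adjustment was found for 9 of the 17, beside 3802 of all 22180 genes. Among 13 genes for turnover of Jun and Fos proteins and for phosphatases that end MAP kinase signals, limma and SAM called 0. Before adjustment 1 of the 13 had a limma p under 0.05, beside 3802 of all 22180 genes. The median was 0.01. That 1 was the phosphatase gene Dusp4 (-0.42 ± 0.07, limma adjusted p = 0.0224), at 9.67, 9.70 and 9.71 with vehicle and 9.29, 9.18 and 9.34 with icilin.

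**Figure D3:**
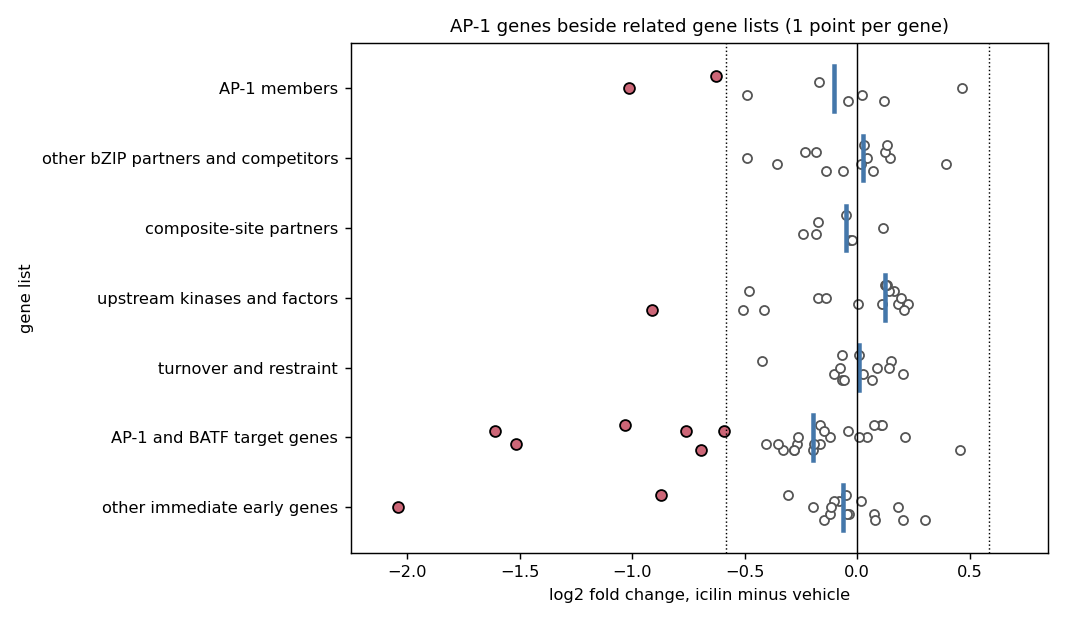
Log2 fold change, icilin minus vehicle (x axis), of every measured gene of the AP-1 set and of 6 related lists (rows), with 1 point per gene, filled where called; blue bars are list medians and dotted lines mark 1.5-fold. Called genes lie on the lower side in every row that has any, and the medians run from -0.19 in the target genes to 0.12 in the upstream genes.

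Genes known to carry AP-1 or BATF sites were also looked at. Of 27 such targets, all measured, 6 were called lower and 0 higher, beside 1.03% and 0.370% of all genes. Of the 27, 20 lay below 0, beside 10431 of all 22180 genes, and the median was -0.19. The list was drawn up with results of these data known, so its count is no independent sign of a direction. Il3, a growth factor for blood cells whose gene neighbours Csf2, stood at 4.50, 4.60 and 4.26 with vehicle and 2.60, 2.94 and 3.26 with icilin. That is a log2 fold change of -1.52 ± 0.17 (limma adjusted p = 0.00595) on a dim probe set (percentile 34.4), and it was not tested where the dimmer genes were left out. Il24, a cytokine of the IL-10 family, fell from 8.83 to 7.22. Gzmb, the gene of granzyme B, fell as well (-0.76 ± 0.06). Csf2, the gene of GM-CSF, fell from 6.59 to 5.56, with another, dim probe set that differed by 0.07 and a mean over both of -0.48, below the fold limit. The remaining 2, picked once values were known, were the inhibitory receptor gene Ctla4 (-0.69 ± 0.06) and the cytokine gene Il5 (-0.59 ± 0.12). Il5 was no longer called with the replicate number as a block (adjusted p = 0.117 by limma), with arrays centred on their median (-0.57), after quantile normalization (-0.56), or without icilin replicate 1 or 3 or any 1 of the vehicle replicates (-0.63 to -0.49).

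**Figure D4:**
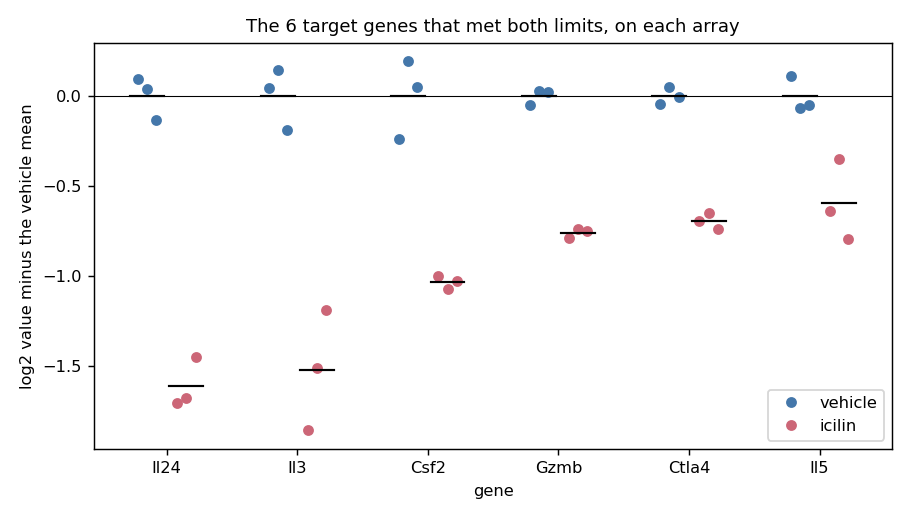
Log2 value minus the mean of the vehicle arrays (y axis) for the 6 called target genes (x axis) on each vehicle array (blue) and each icilin array (red), with group means as lines. All 3 icilin arrays lie below all 3 vehicle arrays for each gene, and the nearest arrays are 0.28 apart for Il5 and 1.31 apart for Il24.

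Targets with smaller or no differences included well known ones, all picked once values were known. Il2, a textbook target of AP-1 and NFAT, stood at 6.53, 6.07 and 6.22 with vehicle and 6.24, 5.95 and 6.05 with icilin (-0.19 ± 0.13, limma adjusted p = 0.525). For Il4 the difference was 0.04, and for Il10, Il17a and Il21, which BATF is known to act on, it was -0.17, -0.27 and -0.12. None of these 5 was called, and the groups overlapped for all but Il10. Over all 27 targets, a list drawn up with results known, the groups did not overlap for 15 lower and 3 higher genes. Among all genes these shares were 10.5% and 13.6%. The target that was higher by the adjusted p alone was Plaur, the urokinase receptor gene (0.46 ± 0.09, adjusted p = 0.0495 by limma), and Vim, for the filament protein vimentin, was lower in that way (-0.35 ± 0.06, adjusted p = 0.0320 by limma).

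Other immediate early genes are induced by the same stimuli as Fos and Junb. Of 18, 2 were called lower and 0 higher, beside 1.03% and 0.370% of all genes, and the median was -0.06. The groups did not overlap for 6 lower and 2 higher genes, beside 10.5% and 13.6% of all genes. The 2 were Ier3, from 9.20 to 7.16, and the orphan nuclear receptor gene Nr4a2, which stood at 7.90, 7.95 and 7.86 with vehicle and 6.97, 7.14 and 6.98 with icilin (-0.87 ± 0.07, limma adjusted p = 0.00201). Egr1 was higher by the adjusted p alone (0.30 ± 0.06, limma adjusted p = 0.0495) and short of 1.5-fold, as named after its value was seen.

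**Figure D5:**
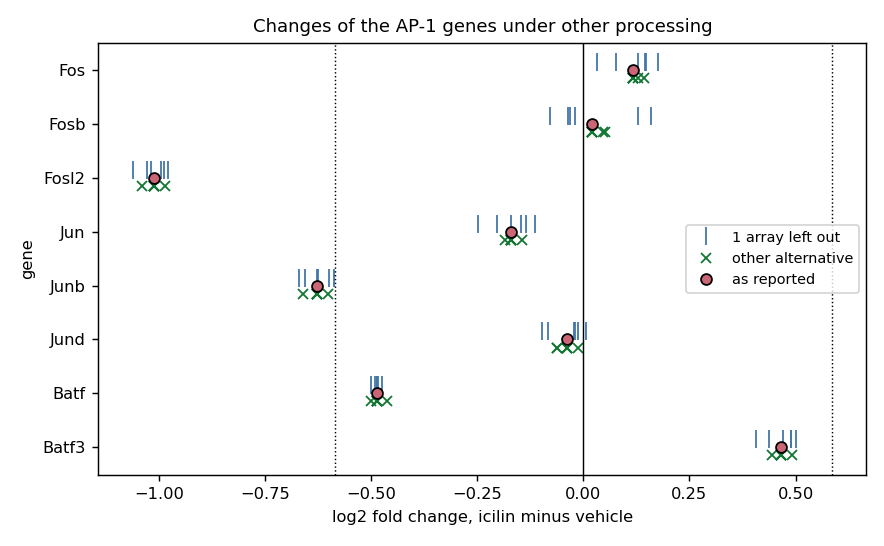
Log2 fold change, icilin minus vehicle (x axis), of the 8 AP-1 genes as reported (circles), with each array left out (blue ticks) and under the other alternatives (green crosses); dotted lines mark 1.5-fold. Fosl2 and Junb stay past the lower line and Batf and Batf3 inside the lines under all 13 alternatives, and the ticks of Fosb and Jund lie on both sides of 0.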

How the data were processed

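Gene expression was measured on 6 arrays. The deposited values are log2 levels per probe set, which the authors transformed and normalized with RMA, per the labels and the series' design text. Such normalization would hide a shift shared by most transcripts. The genome build behind the probe sets is not given in the sources used here.

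Of 41345 probe sets, 23521 had a single gene symbol, 1814 several and 16010 none. The brightest probe set over all arrays was kept per gene (22180 genes). The test was limma (version 3.58.1, R 4.3.3), using lmFit and eBayes for icilin minus vehicle, two-sided, on 4 residual plus 3.07 prior degrees of freedom, with Benjamini-Hochberg adjustment over all genes, at the study's limits, 1.5-fold and 0.1 for the false discovery rate. By exact permutation, 3 arrays a group allow no single-gene p below 0.1, and the number of arrays limits precision. Values are SD for group means and SE for changes.

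The members, the lists, the alternatives and the naming rule (all members; up to 4 called genes of each other list by size, or else the one with the smallest p; the 3 genes most alike to the member that changed most) were chosen with earlier results of these data known. The alternatives are in the closing section. Significance analysis of microarrays (SAM, 20 permutations) and limma were tested on simulated data. Tables and figures used Python 3.11.15, pandas 2.3.3 and matplotlib 3.10.9.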

Additional observations from a re-analysis of the deposited data

How the results depend on the processing

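Fosl2 and Junb were called, and Fos, Fosb, Jun, Jund, Batf and Batf3 were not, under all 13 alternatives in the fit over genes: the replicate block, an intensity trend with robust variances, arrays centred on their median, quantile normalization, genes dimmer than the median left out, the mean of all probe sets, SAM and each of the 6 arrays left out. With the fold limit dropped, 4 members passed an adjusted p of 0.05 and 4 one of 0.1, beside 734 and 1170 of all 22180 genes. Without the fold limit, at 0.05 and 0.1, the bZIP list had 1 and 3 genes, the upstream list 4 and 4, and the turnover list 1 and 1. The composite-site list had 0 and 0, the target list 7 and 8, and the immediate early list 3 and 3. Over every probe set, 2 member probe sets were called, 4 once the fold limit was dropped at 0.1, 1 to 1 with single arrays left out, and 0 with the replicate block (adjusted p = 0.120 for Fosl2 and 0.226 for Junb). Replicate numbers are not tied to mice in the labels, and same-numbered arrays did not deviate together (r of -0.02 to -0.01 across genes, which are not independent replicates), so the block was not used as a pairing. In the fit over genes with the block, the limma adjusted p was 0.0130 for Fosl2, 0.0503 for Junb, 0.0595 for Batf and 0.0720 for Batf3. Leaving out single arrays gave -0.0783 to 0.159 for Fosb and -0.099 to 0.0051 for Jund, with both signs. Il5 missed the limit with the block (adjusted p = 0.117). Csf2 lost its call with the mean of its probe sets. In the fit over genes, the calls of Malt1, Il24, Gzmb, Ctla4, Ier3 and Nr4a2 held under all 13 alternatives, and that of Il3 under the 12 in which it was tested. Signal over background was not given, so how far the dim members Fos and Fosb stood above it is unknown.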

Other observations

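The genes Slc2a6, Bnip3 and Tec had profiles over the 6 arrays most like that of Fosl2, by the root mean square difference of log2 values centred on each gene's mean. Slc2a6 is a member of the glucose transporter family (difference 0.03), Bnip3 encodes a mitochondrial receptor for mitophagy (0.04), and Tec a kinase of T cell receptor signalling (0.04). Slc2a6 stood at 7.18, 7.21 and 7.19 with vehicle and 6.14, 6.10 and 6.31 with icilin. Tec stood at 7.50, 7.60 and 7.68 with vehicle and 6.56, 6.58 and 6.63 with icilin. With 2 groups, such likeness mostly reads the size of the difference between them.

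Within single arrays, the log2 value of Batf3 minus that of Batf was 0.12, 0.01 and 0.10 with vehicle and 1.18, 0.93 and 0.99 with icilin. The change of 0.95 between the groups is not altered by a constant shift of a whole array, though scaling that depends on brightness can alter it. Junb minus Jund changed by -0.59 in the same way (0.07, -0.03 and -0.02 with vehicle; -0.58, -0.61 and -0.55 with icilin), and Fosl2 minus Fos by -1.13. The pairs were chosen after the values were seen, and these differences were not tested.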
